A study of Arabidopsis thaliana with 8 samples.

Results

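A set of 199 probe sets, of 22746 measured on Affymetrix arrays, was defined by low transcript levels in leaves treated with imidacloprid and in no other leaves of the series. A probe set entered when the lowest of the 6 arrays without imidacloprid exceeded the higher imidacloprid array by at least 1.2 on the log2 scale, a 2.30-fold gap. Of 203 probe sets at or past this gap, 4 were left out by name (COR15A, IQD28, IQD30 and GH9B7). Of the 199 members, 91 were named by a single locus each, 4 were listed with several genes and 104 had no gene in the probe table. The exclusions by name or organelle could not be applied to those 104. The plants were wild-type Arabidopsis thaliana, strain Columbia-0, 4 weeks old at treatment, and RNA came from fully expanded whole leaves collected after 4 days. The 4 groups held 2 arrays each: 4 mM imidacloprid, 4 mM clothianidin, 4 mM salicylic acid, and untreated leaves. The untreated leaves were collected at the same time as the treated ones, and the labels used here name no mock-treated group. Leaf tissue of each sample came from 1 of 2 independent experiments.

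Imidacloprid and clothianidin are neonicotinoid insecticides, which act on nicotinic acetylcholine receptors of insects. Imidacloprid carries a chloropyridine ring and an imidazolidine ring, and clothianidin a chlorothiazole ring and an open chain. Salicylic acid is the plant hormone of defence against biotrophic pathogens. Leaf cells export many enzymes to the wall and to the space outside the membrane: GDSL esterase/lipases act on lipid esters of cuticle and wall, class III peroxidases oxidise phenolic compounds with hydrogen peroxide, aspartyl proteases and subtilases cleave exported proteins, and glycosyl hydrolases trim wall polysaccharides. Lipid transfer proteins bind lipids outside the cell. Genes of each of these families were among the named members.

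Values are log2 expression summaries, and for each group they are given as replicate 1 and then replicate 2. Since the rule used every imidacloprid difference, those of the members are descriptions and no test of them is reported. That both imidacloprid arrays lie below the 6 others at every member also follows from the rule. For the actin control probe sets, the 3′ end exceeded the 5′ end on every array, and a larger excess goes with more degraded RNA. It was 0.87 and 1.11 with imidacloprid and 1.04 and 1.75 with clothianidin. With salicylic acid it was 0.74 and 1.41, and in untreated leaves 0.85 and 2.17. Replicate 2 had the larger excess in every group, and both imidacloprid arrays lay below replicate 2 of each other group. The part of RNA quality in the levels was not tested. RCA, for Rubisco activase of the mesophyll, lay between 13.22 and 14.37 on all 8 arrays. The sucrose exporter gene SWEET11 of the phloem lay between 10.86 and 12.24, TRY of trichomes between 2.71 and 4.94, and the root beta-glucosidase gene PYK10 (BGLU23) at 4.91 and 2.61 with imidacloprid and between 4.49 and 9.09 on the other arrays. These were the only markers measured by a single-locus probe set, 1 of 9 listed for mesophyll, 1 of 4 for phloem, 1 of 6 for epidermis and trichome and 1 of 5 for root; markers of guard cell, xylem, flower and seed were not analysed here. In whole leaves, fewer cells of a type and less RNA per cell cannot be told apart.

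Over the 199 members the median level was 4.61 and 4.30 with imidacloprid, 7.005 and 7.78 with clothianidin, 7.85 and 6.83 with salicylic acid, and 8.04 and 7.75 in untreated leaves. The median over all probe sets lay between 4.84 and 5.09 on the 8 arrays. The median difference was -3.25 for imidacloprid minus untreated (range -7.15 to -1.57), -2.72 for imidacloprid minus clothianidin and -2.69 for imidacloprid minus salicylic acid, where the medians over all probe sets were 0.02, 0.04 and 0.04. Gaps ran from 1.201 to 3.71 with a median of 1.59, and 47 members had a gap of at least 2 and 5 of at least 3. At 14 members, 5 of them named, the imidacloprid mean lay under 2.49, the 25th percentile of all probe sets averaged over arrays. Background was not measured here, and so low a level can limit the size of a difference. The named members just inside the threshold were AT4G38690, ALN and AT1G80170, with gaps of 1.202, 1.201 and 1.201, and those just outside were AT2G36410 at 1.197, AT4G23740 at 1.18 and NET1B at 1.18.

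**Figure D1:**
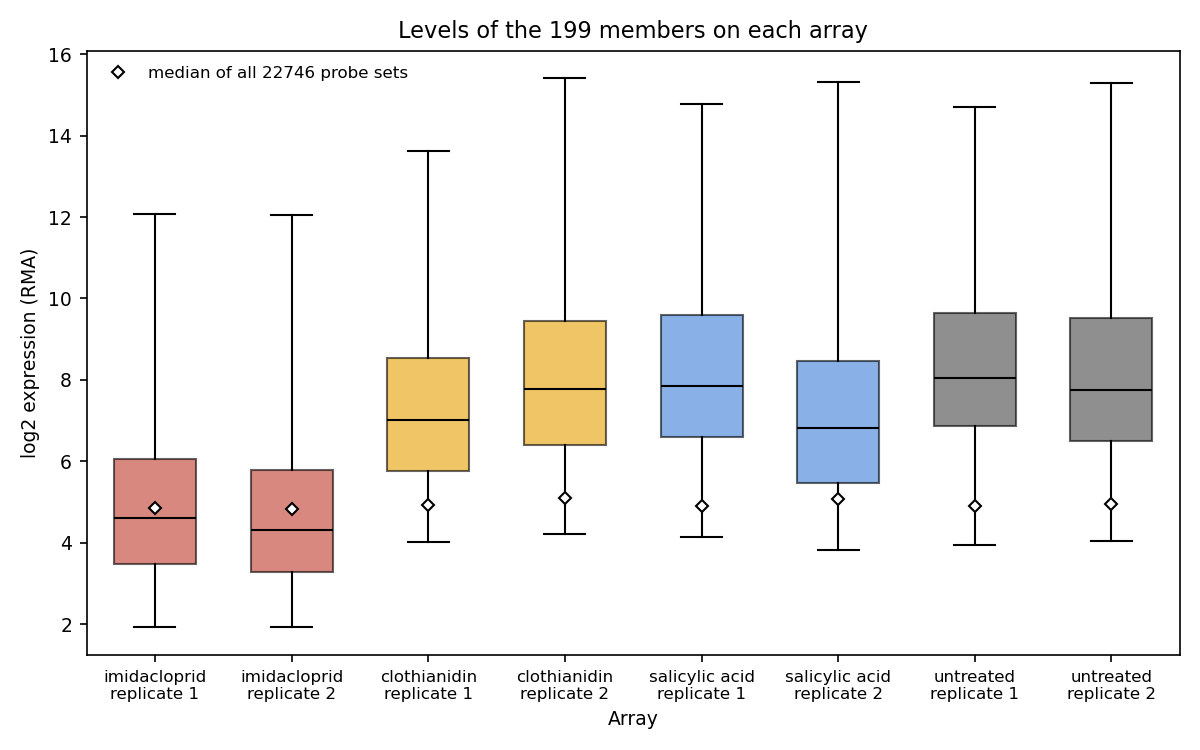
Levels of the 199 members on each of the 8 arrays (log2 expression); boxes show quartiles, the line the median and whiskers the range, and open diamonds the median of all 22746 probe sets. The imidacloprid medians, 4.61 and 4.30, are the lowest, and among the other arrays clothianidin replicate 1 and salicylic acid replicate 2 lie below the rest.

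Applied to the other groups in the same way and with no name left out, the rule found 0 probe sets low only with clothianidin, 0 low only with salicylic acid and 82 low only in untreated leaves. In the opposite direction it found 329 probe sets high only with imidacloprid, 1 with clothianidin, 0 with salicylic acid and 5 in untreated leaves.

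The largest gaps included genes of lipid-binding and small membrane proteins. AT4G30650, a gene of the RCI2 family of small hydrophobic membrane proteins known from cold and salt responses, had the largest of all: it stood at 4.86 and 3.67 with imidacloprid, 8.57 and 10.60 with clothianidin, 10.31 and 9.65 with salicylic acid, and 11.18 and 11.64 in untreated leaves. Its group means were 4.26 ± 0.85 with imidacloprid and 11.41 ± 0.33 in untreated leaves (SD, n = 2), a difference of -7.15 that was also the largest of the 199 members. The clothianidin arrays and the salicylic acid arrays all lay below both untreated ones. The next gene on chromosome 4, AT4G30660, belongs to the same family and was also a member, at 8.43 and 7.93 with imidacloprid, 10.24 and 10.64 with clothianidin, 11.63 and 10.52 with salicylic acid, and 11.83 and 11.36 in untreated leaves. Both genes were low on both imidacloprid arrays, the second with a smaller gap of 1.81 against 3.71. AT1G62510, a lipid transfer protein gene, stood at 4.96 and 5.44 with imidacloprid, 8.21 and 12.30 with clothianidin, 11.89 and 11.39 with salicylic acid, and 10.78 and 10.95 in untreated leaves; clothianidin replicate 1 was the lowest array outside imidacloprid, 4.08 below its own replicate. A second lipid transfer protein gene, AT1G48750, varied more among the other arrays, at 4.22 and 3.13 with imidacloprid, 5.82 and 10.47 with clothianidin, 6.92 and 8.67 with salicylic acid, and 6.11 and 8.80 in untreated leaves. There replicate 1 was the lower array in each of the 3 groups without imidacloprid, and higher with imidacloprid. AT4G23670, of the major latex protein-like family of ligand-binding proteins, varied little outside imidacloprid, at 10.21 and 9.84 with imidacloprid, 12.87 and 13.55 with clothianidin, 13.39 and 13.23 with salicylic acid, and 13.38 and 13.33 in untreated leaves. The 6 other arrays spanned 12.87 to 13.55, and imidacloprid lay -3.33 from untreated.

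Genes of other families filled the rest of the top ranks. AT1G09310, an unnamed protein gene, had the second-largest gap, at 8.62 and 7.70 with imidacloprid, 12.14 and 13.24 with clothianidin, 13.25 and 12.10 with salicylic acid, and 13.75 and 13.09 in untreated leaves. AT1G27030, also without a name, stood at 4.10 and 3.45 with imidacloprid, 8.003 and 9.21 with clothianidin, 8.27 and 7.03 with salicylic acid, and 8.86 and 8.85 in untreated leaves. In both genes salicylic acid replicate 2 was the lowest of the other arrays, and it was still 3.48 and 2.93 above the higher imidacloprid array. The FCS-like zinc finger genes AT1G22160 and AT1G78020, whose proteins are adaptors of the energy-sensing SnRK kinase, were low together. AT1G22160 stood at 5.50 and 4.58 with imidacloprid, 8.11 and 9.01 with clothianidin, 9.24 and 8.12 with salicylic acid, and 8.76 and 8.89 in untreated leaves, and AT1G78020 at 7.21 and 6.08 with imidacloprid, 9.28 and 10.51 with clothianidin, 10.15 and 9.41 with salicylic acid, and 10.04 and 10.19 in untreated leaves. Outside imidacloprid their group means differed from untreated by no more than 0.33 in size. The TRAF-like genes ZW9 and AT4G01390 had imidacloprid means of 5.80 ± 0.76 and 3.37 ± 0.43, against 10.26 ± 0.88 and 7.13 ± 1.1 in untreated leaves (SD, n = 2). ZW9 stood at 5.26 and 6.33 with imidacloprid, 8.43 and 10.43 with clothianidin, 9.66 and 10.01 with salicylic acid, and 9.64 and 10.88 in untreated leaves. AT4G01390 stood at 3.67 and 3.06 with imidacloprid, 6.84 and 6.14 with clothianidin, 5.77 and 5.37 with salicylic acid, and 6.35 and 7.91 in untreated leaves. Both salicylic acid arrays of AT4G01390 lay below all clothianidin and untreated arrays.

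**Figure D2:**
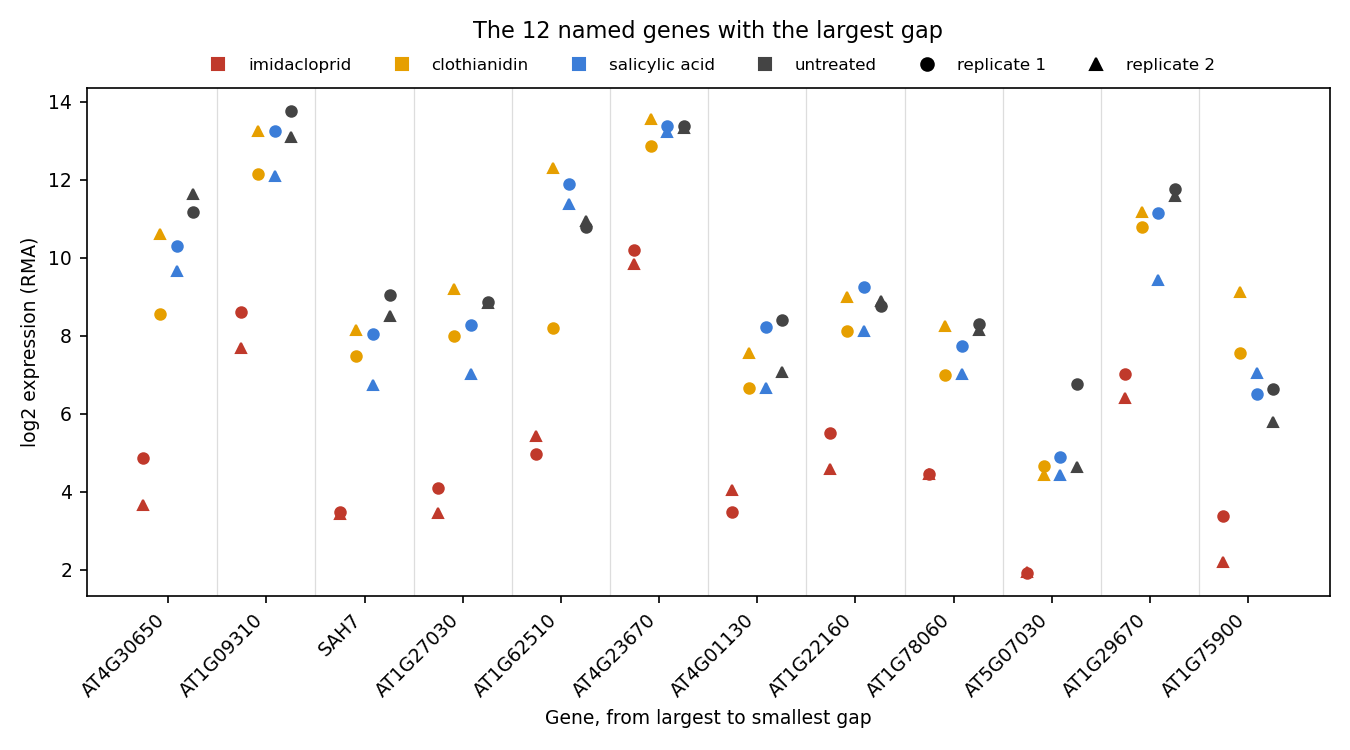
Log2 expression of the 12 named genes with the largest gap, a point for each array, with imidacloprid left of the other groups in each gene; circles are replicate 1 and triangles replicate 2. As the rule requires, both imidacloprid points of each gene lie below all 6 others, by 3.71 for AT4G30650 and 2.41 for AT1G75900.

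The group set by hand as cell wall held 10 named members, with imidacloprid differences from untreated between -5.32 and -1.87 (median -2.97). It is not a count of all exported proteins. Genes of GDSL esterase/lipases, peroxidases, proteases and lipid transfer proteins were placed in other groups. SAH7, of the pollen allergen and extensin family, stood at 3.49 and 3.43 with imidacloprid, 7.49 and 8.16 with clothianidin, 8.06 and 6.75 with salicylic acid, and 9.04 and 8.52 in untreated leaves. AT3G26960, of the same family, differed by -3.17. AT1G78060, a glycosyl hydrolase gene of the beta-xylosidase family, which trims xylan, stood at 4.47 and 4.45 with imidacloprid, 7.002 and 8.25 with clothianidin, 7.74 and 7.02 with salicylic acid, and 8.32 and 8.16 in untreated leaves, with nearly equal imidacloprid replicates. AT3G19620, of the same family, had imidacloprid and untreated means of 3.67 ± 0.04 and 6.32 ± 0.11 (SD, n = 2). EXLB1, an expansin-like gene, was steady in untreated leaves and spread widely with the other treatments, at 3.74 and 2.04 with imidacloprid, 5.87 and 10.89 with clothianidin, 6.94 and 10.26 with salicylic acid, and 7.42 and 7.44 in untreated leaves. Its clothianidin arrays were 5.02 apart, 1 above and 1 below the untreated level. AT3G10080, a germin-like gene of the cupin family, followed another pattern, at 4.005 and 3.79 with imidacloprid, 5.39 and 5.55 with clothianidin, 5.99 and 5.69 with salicylic acid, and 7.63 and 6.79 in untreated leaves. Here clothianidin and salicylic acid arrays all lay between the imidacloprid and the untreated arrays. The remaining cell wall members were the pectin lyase-type gene AT1G80170 (difference -2.42), the pectin methylesterase inhibitor family gene AT3G62820 (-2.62), the beta-glucanase-type gene AT5G56590 (-1.87) and the berberine bridge enzyme-like gene AT5G44410 (-2.76).

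GDSL esterase/lipase genes were the most numerous family among the named members, with 7 loci and differences of imidacloprid from untreated between -4.97 and -3.32 (median -3.97). AT1G29670 stood at 7.02 and 6.41 with imidacloprid, 10.80 and 11.18 with clothianidin, 11.14 and 9.44 with salicylic acid, and 11.77 and 11.59 in untreated leaves. AT4G01130 stood at 3.49 and 4.04 with imidacloprid, 6.66 and 7.56 with clothianidin, 8.23 and 6.66 with salicylic acid, and 8.39 and 7.07 in untreated leaves. Salicylic acid replicate 2 was the lowest of the other arrays in AT1G29670 and level with clothianidin replicate 1 in AT4G01130. AT1G75900 departed from the other 6, at 3.38 and 2.21 with imidacloprid, 7.56 and 9.12 with clothianidin, 6.52 and 7.04 with salicylic acid, and 6.64 and 5.80 in untreated leaves: its clothianidin mean of 8.34 ± 1.11 was above the untreated mean of 6.22 ± 0.60 (SD, n = 2), by 2.12. AT3G16370 had means of 6.96 ± 0.53, 10.56 ± 0.10, 10.17 ± 1.51 and 11.63 ± 0.83 with imidacloprid, clothianidin, salicylic acid and in untreated leaves (SD, n = 2). Imidacloprid minus untreated was -4.72 for AT5G45950, -3.97 for AT5G14450 and -3.32 for AT3G53100. The imidacloprid mean of AT3G53100, 2.29, lay under 2.49, a level that can limit the size of the difference. With clothianidin 6 of the 7 had a mean below untreated, by up to 1.07, and with salicylic acid 6 of 7, by up to 1.46. The probe table named these loci without their family, so the family could not be counted over the whole array.

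Protease genes numbered 7, of which 4 encode aspartyl proteases and 3 subtilases, the serine proteases of the plant cell wall. The aspartyl protease gene AT5G07030 stood at 1.92 and 1.94 with imidacloprid, 4.65 and 4.43 with clothianidin, 4.90 and 4.43 with salicylic acid, and 6.76 and 4.64 in untreated leaves. Both imidacloprid values lay under 2.49, a level that can limit the size of the difference, which was -3.77. AT1G62290, an aspartyl protease of the type with a saposin-like insert, stood at 3.57 and 4.43 with imidacloprid, 6.62 and 8.54 with clothianidin, 7.91 and 6.57 with salicylic acid, and 8.27 and 7.94 in untreated leaves. Clothianidin replicate 1 and salicylic acid replicate 2 were its lowest arrays after the imidacloprid pair. The other aspartyl protease genes, AT1G01300 and AT1G66180, differed by -4.36 and -1.90. AT1G66180 had higher means with clothianidin (8.997 ± 0.08) and salicylic acid (8.92 ± 0.43) than in untreated leaves (8.25 ± 0.68; SD, n = 2), unlike the other 6 protease genes. The subtilase gene AT4G30020 stood at 2.70 and 2.77 with imidacloprid, 6.16 and 5.78 with clothianidin, 7.07 and 4.50 with salicylic acid, and 8.42 and 6.58 in untreated leaves. Its imidacloprid arrays were close together, and the other groups spread more. AT2G39850 and AT5G44530, the other subtilase genes, had imidacloprid means of 7.09 ± 0.39 and 3.20 ± 0.43, against 10.26 ± 0.049 and 7.17 ± 1.16 in untreated leaves (SD, n = 2).

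Class III peroxidase genes numbered 2. PRXR1 stood at 11.49 and 8.87 with imidacloprid, 13.26 and 13.78 with clothianidin, 14.07 and 13.29 with salicylic acid, and 13.94 and 13.87 in untreated leaves. The 6 other arrays of PRXR1 lay within 13.26 to 14.07, and the imidacloprid replicates were 2.61 apart, both of them below. AT1G71695 stood at 6.92 and 5.77 with imidacloprid, 9.79 and 10.24 with clothianidin, 10.52 and 9.15 with salicylic acid, and 10.69 and 10.05 in untreated leaves, a difference of -4.02 between imidacloprid and untreated.

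Signalling genes numbered 8, most of them protein kinase genes, with differences of imidacloprid from untreated between -3.72 and -1.71 (median -2.68). AT4G19530, a gene of the nucleotide-binding resistance protein family, stood at 6.70 and 6.29 with imidacloprid, 9.80 and 10.63 with clothianidin, 9.996 and 8.29 with salicylic acid, and 9.64 and 10.80 in untreated leaves. AT3G13690, a protein kinase gene, stood at 4.60 and 4.56 with imidacloprid, 6.56 and 7.07 with clothianidin, 8.11 and 6.08 with salicylic acid, and 8.29 and 7.08 in untreated leaves. PTI1-4, for a kinase of the Pto-interacting type, hardly varied outside imidacloprid, at 5.42 and 5.72 with imidacloprid, 7.41 and 7.25 with clothianidin, 7.28 and 7.19 with salicylic acid, and 7.18 and 7.37 in untreated leaves. Its 6 other arrays spanned 7.18 to 7.41 and its difference was the smallest of the 8. CLE26, for a secreted signalling peptide of the CLE family, stood at 2.92 and 3.15 with imidacloprid, 4.57 and 4.52 with clothianidin, 5.10 and 4.54 with salicylic acid, and 5.90 and 5.74 in untreated leaves. As in AT3G10080, all clothianidin and salicylic acid arrays of CLE26 lay between the imidacloprid and the untreated arrays. Imidacloprid minus untreated was -3.59 for the kinase gene AT4G02630, -2.58 for the kinase gene AT5G50180, and -2.46 and -2.43 for the leucine-rich repeat receptor-like kinase genes AT1G51805 and AT5G63710.

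Ubiquitin ligase genes numbered 4. AT1G49200, a RING finger gene, stood at 3.07 and 2.57 with imidacloprid, 5.38 and 5.32 with clothianidin, 4.93 and 5.30 with salicylic acid, and 4.88 and 4.76 in untreated leaves, with both clothianidin and both salicylic acid arrays above the untreated pair. AT3G54790, of the U-box type, stood at 3.30 and 4.12 with imidacloprid, 5.71 and 6.26 with clothianidin, 6.38 and 6.17 with salicylic acid, and 6.76 and 6.76 in untreated leaves. Its untreated arrays were the highest and its imidacloprid arrays the lowest. AT3G61550, another RING finger gene, stood at 2.98 and 3.09 with imidacloprid, 4.57 and 4.95 with clothianidin, 5.47 and 4.67 with salicylic acid, and 6.003 and 4.87 in untreated leaves. The fourth, AT5G42200, had the widest spread of the 4 outside imidacloprid, 5.27 to 7.70, and an imidacloprid mean of 3.84 ± 0.24 (SD, n = 2).

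Transporter genes numbered 5. AT2G16990, of the major facilitator superfamily, stood at 4.14 and 4.16 with imidacloprid, 6.10 and 8.53 with clothianidin, 8.25 and 7.61 with salicylic acid, and 8.50 and 8.04 in untreated leaves. AT5G13400, of the NRT1/PTR family that carries nitrate and peptides, stood at 2.85 and 3.07 with imidacloprid, 5.78 and 6.47 with clothianidin, 6.29 and 4.57 with salicylic acid, and 6.98 and 7.11 in untreated leaves. Salicylic acid replicate 2 was the lowest of the other arrays in AT5G13400, and clothianidin replicate 1 in AT2G16990. SWEET13, which encodes a sucrose exporter, stood at 2.20 and 2.70 with imidacloprid, 4.17 and 4.98 with clothianidin, 6.93 and 4.70 with salicylic acid, and 5.96 and 4.83 in untreated leaves. Its imidacloprid mean of 2.45 lay under 2.49, a level that can limit the size of a difference. SWEET1, for a glucose transporter of the same family, had means of 2.36 ± 0.54 with imidacloprid, under 2.49, and 4.19 ± 0.03 in untreated leaves (SD, n = 2). AT1G80530, of the major facilitator superfamily, differed by -2.22.

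Metabolic genes numbered 12, with differences between -4.31 and -1.91. PMEAMT, for a methyltransferase of phosphocholine synthesis, differed most, with means of 7.35 ± 1.12 with imidacloprid and 11.66 ± 0.03 in untreated leaves (SD, n = 2). AT3G61210, a methyltransferase gene, stood at 6.73 and 5.49 with imidacloprid, 8.81 and 9.47 with clothianidin, 9.63 and 9.07 with salicylic acid, and 8.82 and 9.70 in untreated leaves. Outside imidacloprid the groups of AT3G61210 overlapped. AT3G55760, known as LESV and needed for normal starch granules, stood at 4.99 and 4.35 with imidacloprid, 6.95 and 9.20 with clothianidin, 7.81 and 8.19 with salicylic acid, and 7.65 and 9.21 in untreated leaves. Its groups outside imidacloprid also overlapped, with clothianidin replicate 1 the lowest of the 6. AT2G17650, of the AMP-dependent synthetase family, was steady within each group, at 3.26 and 2.83 with imidacloprid, 5.25 and 5.53 with clothianidin, 5.59 and 5.17 with salicylic acid, and 5.81 and 5.55 in untreated leaves. Its clothianidin arrays lay just below both untreated arrays. UPP, for the uracil salvage enzyme uracil phosphoribosyltransferase, differed by -3.90, and ALN, for allantoinase of purine breakdown, by -2.09. Both enzymes act on nucleobases or their products. AOP1, a dioxygenase gene of the AOP locus of glucosinolate side chain modification, differed by -3.86. ALDH3F1, an aldehyde dehydrogenase gene, had means of 5.01 ± 0.08 and 7.91 ± 1.11 with imidacloprid and in untreated leaves (SD, n = 2). The tropinone reductase-like genes AT2G29300 and AT1G07440 differed by -3.14 and -1.91, AT4G38690 of the phosphodiesterase type by -3.91, and the arginine synthesis gene AT2G37500 by -2.05.

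The last 3 members with a known role were AT5G44680 of the DNA glycosylase family, the beta-tubulin gene TUB6 and AT2G28810 of the Dof zinc finger transcription factors. AT5G44680 stood at 5.53 and 4.96 with imidacloprid, 9.81 and 9.72 with clothianidin, 10.64 and 7.37 with salicylic acid, and 10.43 and 10.76 in untreated leaves; salicylic acid replicate 2 was 3.26 below its own replicate and still 1.85 above the higher imidacloprid array. TUB6 stood at 7.41 and 7.38 with imidacloprid, 9.50 and 9.42 with clothianidin, 9.92 and 8.69 with salicylic acid, and 10.84 and 9.61 in untreated leaves. AT2G28810 stood at 5.20 and 5.34 with imidacloprid, 6.61 and 6.77 with clothianidin, 7.27 and 7.15 with salicylic acid, and 7.89 and 7.50 in untreated leaves, with replicates close in every group and with clothianidin and salicylic acid arrays all between the imidacloprid and untreated ones.

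**Figure D3:**
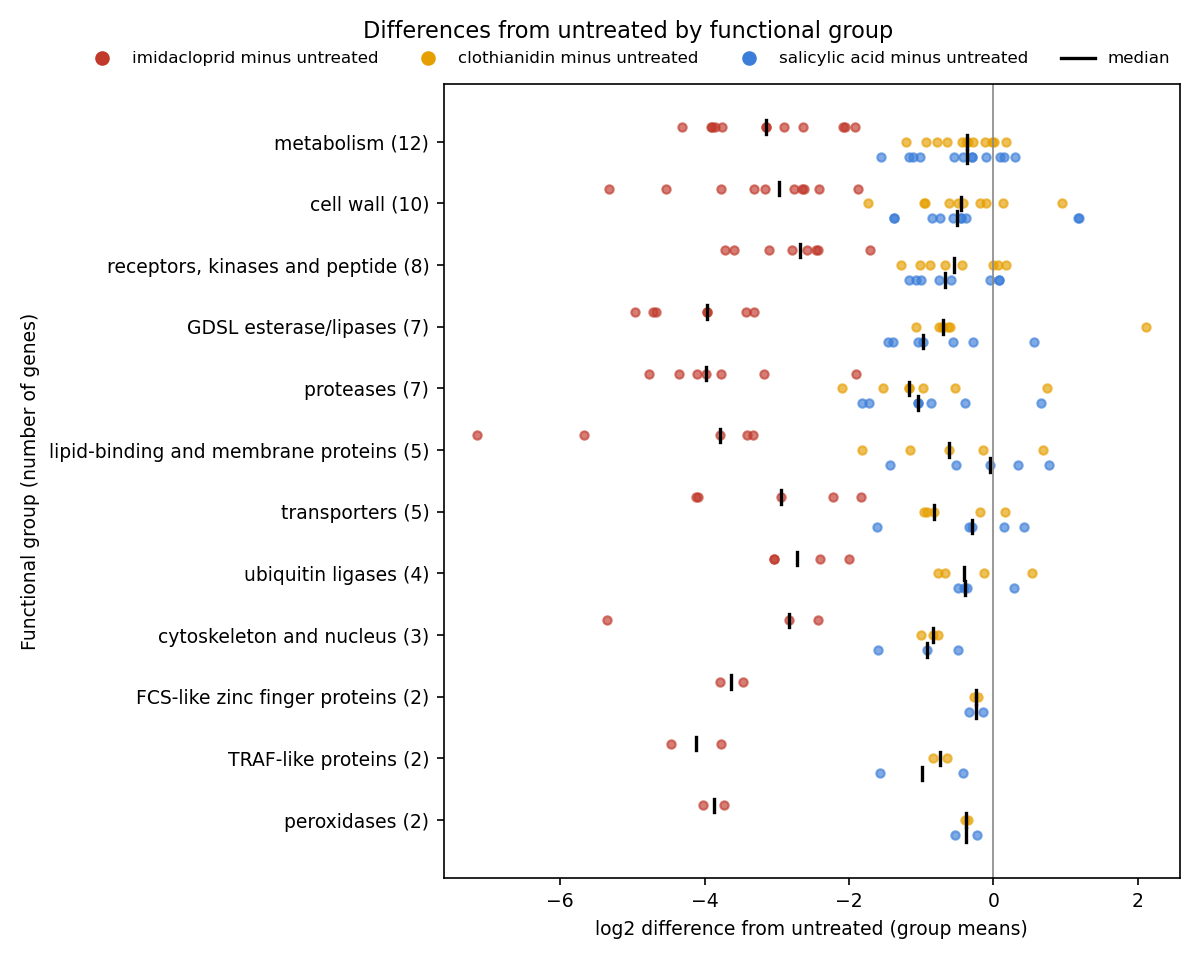
Log2 differences of group means from untreated leaves for the 67 named members placed in a functional group, a point for each gene and a black bar for the median of the group, with imidacloprid above clothianidin and salicylic acid. All imidacloprid points lie between -7.15 and -1.71, the clothianidin points between -2.09 and 2.12 and the salicylic acid points between -1.82 and 1.19.

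A further 24 named members had no role assigned here, AT1G09310 and AT1G27030 among them; their gaps ran from 1.203 to 3.48 and their imidacloprid differences from -5.26 to -1.62. Among them AT5G12050 differed between replicate numbers more than between groups outside imidacloprid, at 3.21 and 2.06 with imidacloprid, 7.89 and 5.08 with clothianidin, 9.34 and 4.98 with salicylic acid, and 9.14 and 4.61 in untreated leaves. The 104 members with no gene in the table had gaps from 1.204 to 3.15 (median 1.61) and a median imidacloprid difference of -3.35, against a median gap of 1.497 and a median difference of -3.17 in the 91 named ones. The largest gap among them was that of probe set 259789_at, at 4.77 and 4.32 with imidacloprid, 7.92 and 9.91 with clothianidin, 10.49 and 8.84 with salicylic acid, and 10.12 and 10.41 in untreated leaves. Probe set 247717_at stood at 2.56 and 2.40 with imidacloprid, 5.25 and 14.81 with clothianidin, 11.38 and 13.80 with salicylic acid, and 5.61 and 10.72 in untreated leaves, and its clothianidin arrays, 9.56 apart, were the least alike replicates of all members. The 4 probe sets listed with several genes had gaps from 1.54 to 2.08, and 7 members in all lay on probe sets of the type that can match several transcripts.

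Clothianidin and salicylic acid were set against untreated leaves and against each other, comparisons in which the rule fixes no direction. No member passed the test: in limma's test over all 22746 probe sets, 0 of 199 members reached an adjusted p under 0.05 in clothianidin minus untreated, 0 in salicylic acid minus untreated and 0 in clothianidin minus salicylic acid. The background was also 0, with 0% of all probe sets called in each of the 3. At an unadjusted p under 0.05, 10 members were lower and 1 higher with clothianidin than in untreated leaves (5.03% and 0.503% of the members, beside 1.53% and 1.11% of all probe sets). With salicylic acid 16 were lower and 0 higher (8.04% and 0%, beside 1.87% and 1.51%). Between clothianidin and salicylic acid 2 were lower and 1 higher (1.01% and 0.503%, beside 0.572% and 0.646%). With 2 arrays against 2, the smallest p that exact permutation allows for 1 gene is 0.333.

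The named members with the smallest p are given for each comparison. In clothianidin minus untreated they were AT2G28810 at -1.005 (SE 0.15; 95% confidence interval -1.40 to -0.61), CLE26 at -1.27 (SE 0.21) and AT3G10080 at -1.74 (SE 0.30), each at a limma adjusted p = 0.996. In salicylic acid minus untreated, which shares the untreated arrays, they were CLE26 at -1.001 (SE 0.21; 95% confidence interval -1.54 to -0.46), AT3G10080 at -1.37 (SE 0.30) and AT2G28810 at -0.49 (SE 0.15), each at a limma adjusted p = 0.975. In clothianidin minus salicylic acid they were AT2G28810 at -0.52 (SE 0.15), AT2G39850 at -0.59 (SE 0.26) and AT1G75900 at 1.56 (SE 0.71), each at a limma adjusted p = 1.00. For AT1G75900 the 95% confidence interval of that difference was -0.30 to 3.42, so neither no difference nor a large one lies outside it. These genes stood between the imidacloprid and untreated levels in both treatments, except AT1G75900, whose clothianidin arrays were the highest of the 8.

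As a group, the members lay slightly below untreated leaves with both other treatments. The median difference was -0.53 with clothianidin and -0.55 with salicylic acid, against -0.02 over all probe sets in each case, and 0.08 for clothianidin minus salicylic acid. The mean was below untreated at 171 of 199 members with clothianidin and at 165 with salicylic acid, 85.9% and 82.9%, beside 64.5% and 63.9% of all probe sets. Both clothianidin arrays lay below both untreated arrays at 76 members, 38.2%, beside 14.9% of all probe sets, and above them at 3, 1.51%, beside 10% of all probe sets. For salicylic acid the counts were 58 below (29.1%, beside 34.7%) and 14 above (7.04%, beside 8.28%), shares no higher than the background. A mean at least 1 lower than untreated was found at 39 members with clothianidin (19.6%, beside 3.03%) and 55 with salicylic acid (27.6%, beside 4.55%), and at least 1 higher at 4 (2.01%, beside 4.8%) and 6 (3.02%, beside 5.28%). Both clothianidin arrays lay below both salicylic acid arrays at 9 members (4.52%, beside 6.05%) and above them at 14 (7.04%, beside 8.32%). Both comparisons with untreated leaves share the untreated arrays. The background shares are over probe sets not matched to the members by level, and the part of level was not tested. Without salicylic acid replicate 2 the median member lay -0.0915 from untreated with salicylic acid, and -0.999 without replicate 1. For clothianidin the median was -0.26 without replicate 1 and -0.83 without replicate 2.

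The other arrays were not alike. Within replicate number 1 the median member lay -1.03 from untreated with clothianidin and -0.24 with salicylic acid, and within number 2 the medians were -0.07 and -0.82. For imidacloprid they were -3.26 and -3.39. Salicylic acid replicate 2 was the lowest of the 6 other arrays at 101 members (50.8%, beside 24.7% of all probe sets) and clothianidin replicate 1 at 69 (34.7%, beside 13.1%). These were the lowest pair among the 6 at 100 members, 50.3%, beside 7.63% of all probe sets. Clothianidin replicate 2 was the lowest at 4 members, 2.01%, though it was at 29.2% of all probe sets. The counts were 7 for salicylic acid replicate 1 (3.52%, beside 11.7%) and 8 and 10 for the untreated arrays (4.02% and 5.03%, beside 14.1% and 7.31%). The gap of most members was therefore set by clothianidin replicate 1 or salicylic acid replicate 2. The 3′ excess of actin was 1.04 on clothianidin replicate 1 and 1.41 on salicylic acid replicate 2, and 1.75 and 0.74 on their replicates; its part in the result was not tested.

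**Figure D4:**
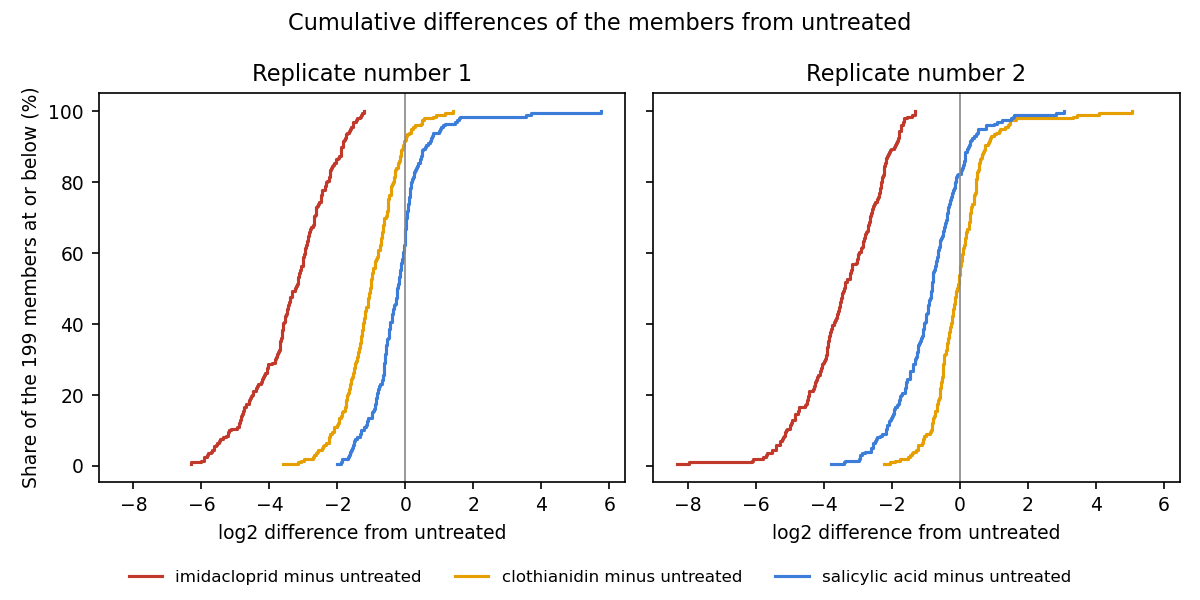
Cumulative share (%) of the 199 members against their log2 difference from the untreated array of the same replicate number, for imidacloprid, clothianidin and salicylic acid. The clothianidin curve lies left of the salicylic acid curve in number 1 (medians -1.03 and -0.24) and at the median lies right of it in number 2 (-0.07 and -0.82), with imidacloprid left of both.

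Replicates of a group also differed more among the members than over all probe sets. The median absolute replicate difference was 0.44 with imidacloprid, 0.69 with clothianidin, 0.91 with salicylic acid and 0.64 in untreated leaves, beside 0.18, 0.21, 0.30 and 0.23 over all probe sets. The members also differed in level, with a median untreated mean of 7.91, beside 4.96 over all probe sets. The part of level was not tested. The imidacloprid value of the members rests on arrays the rule used, and over all probe sets the imidacloprid pair was also the closest.

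Other genes of growth, wall and leaf pathways were taken from 19 lists. Only 49 of the listed loci had a single-locus probe set, and 1 of these, CLE26, was a member. Measured were 8 of 9 listed subtilase loci, 7 of 143 auxin loci, 5 of 30 CLE loci and 3 of 27 gibberellin loci. For nuclear photosynthesis it was 5 of 31, for pectin modification 3 of 20, for tetrapyrroles 6 of 17 and for stomatal development 4 of 14. Values therefore describe the measured loci and not whole pathways. With CLE26 set aside, 0 of the other 48 passed limma's test of imidacloprid minus untreated in either direction, beside 0.11% of all probe sets as lower and 0.202% as higher. The share called lower includes members, which the rule chose by this same difference, so it is not a like background for the 48. At an unadjusted limma p under 0.05, 7 of the 48 were lower and 5 higher. Over all 22746 probe sets 4385 reached that p, members included, a total not split by direction here. In the 3 other comparisons 0 of the 48 passed. At an unadjusted limma p under 0.05, 2 of the 48 were lower and 2 higher for clothianidin minus untreated, beside 347 and 252 of all 22746. For salicylic acid minus untreated 0 were lower and 2 higher, beside 425 and 343. For clothianidin minus salicylic acid 1 was lower and 1 higher, beside 130 and 147. Lists were matched by symbol or synonym, and several members of the same families were not reached that way. Among them were the subtilase genes AT4G30020, AT2G39850 and AT5G44530, the germin-like gene AT3G10080 and the pectin methylesterase inhibitor family gene AT3G62820. The list values therefore leave out members of these families. Of 8 measured subtilase genes with a symbol, 0 passed and 4 were negative with imidacloprid (median -0.01). That median hides differences in both directions: SBT3.3 differed by 6.37 and SBT3.5 by 5.19, but SBT1.3 by -3.46 and ARA12 by -1.64. Means under 2.49 in every group were found for SBT4.12, SBT4.13 and SBT5.4. Of 5 CLE peptide genes, CLE26 included, 4 were negative (median -0.55), and CLE41, a vascular signalling peptide gene, had means of 4.55 with imidacloprid and 6.26 in untreated leaves without being a member, its gap being 0.39. Of 7 auxin genes 1 was negative (median 0.06), and of 3 pectin modification genes 1 (median 0.01). The means of IAA31, IAA33 and the pectin gene AT4G02300 lay under 2.49 in every group, and those of IAA20 and IAA34 between 2.45 and 2.70. IAA30 differed by 2.20, IAA29 by -2.10 and the pectin gene PME61 by -2.09. Of 3 gibberellin genes 2 were negative (median -0.58), of 4 stomatal development genes 2 (median -0.76), of 5 nuclear photosynthesis genes 4 (median -1.07) and of 6 tetrapyrrole genes 5 (median -1.16). The median of all probe sets was 0.02. In the stomatal list the means of MUTE and SPCH also lay under 2.49 in every group, and in the gibberellin list GID1B differed by 3.46. The other 11 lists had fewer than 3 measured genes.

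The named members were spread over all 5 chromosomes, with 28, 10, 15, 21 and 17 on chromosomes 1 to 5, or 30.8%, 11%, 16.5%, 23.1% and 18.7%, beside 25.8%, 16.4%, 20.6%, 14.6% and 22.6% of all measured loci. By gene order in the TAIR10.1 annotation, 2 pairs had at most 5 genes between them. These were AT4G30650 and AT4G30660, which are adjacent, and AT1G78020 and AT1G78060, with 4 genes between.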

How the data were processed

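RNA of 8 leaf samples was measured, 1 Affymetrix array each. The authors deposited log2 expression values summarised per probe set; RMA and affy are the tools that the submitters' processing notes name, without versions, and the background step is not given in the sources used here. After removal of 64 control probe sets, all 22746 others were kept. The number of arrays limits the precision.

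GEO's probe table and the TAIR10.1 annotation gave 1 matched locus to 13436 of 22746 probe sets, several genes to 503, an unmatched gene to 77 and none to 8730. Promoter motifs were not analysed here for want of sequences, and the epidermal marker symbol FDH was dropped, since it names formate dehydrogenase in that table.

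Tests used limma 3.58.1 in R 4.3.3: 1 fit over all 8 arrays with a mean per group (4 residual and 0.766 prior degrees of freedom), two-sided, Benjamini-Hochberg over all probe sets, threshold 0.05. Tables were made with Python 3.11.15. Imidacloprid differences chose the members, so no test of a member in them is reported, although the fit over all probe sets held the members. The labels do not say that a replicate number marks an experiment, and arrays were not paired by it. Alternatives were a replicate block, an intensity trend with robust prior, only the groups compared, median centring, repeated quantile normalization, a filter on dim probe sets, gaps of 1.0 and 1.5, and leaving out each array.

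Members and lists were chosen with earlier results of these data known. Values on all arrays are given for the 12 named members with the largest gap and up to 3 with the largest gap per functional group. The 3 named members with the smallest p are given for each tested comparison. Functional groups were set by hand from general knowledge of the loci after the members were seen. The array values of AT4G30660, AT1G48750, AT3G10080, CLE26 and AT5G12050, CLE41 and the 2 probe sets without a gene were chosen for print after they were seen. Where a listed locus had several probe sets, the one with the highest mean was used.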

Additional observations from a re-analysis of the deposited data

How the results depend on the processing

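With 2 arrays a group, membership depends on single arrays and on scaling. The 199 members became 284 with a gap of 1.0 and 116 with 1.5, 147 with arrays centred on medians (all among the 199) and 169 after repeated quantile normalization (165 of them shared). Without each array in turn the number ran from 201 to 546, with 542 and 323 without imidacloprid replicate 1 or 2 and 546 without salicylic acid replicate 2; the 199 stayed among them in each case, since leaving out an array can only widen a gap. The median of imidacloprid minus untreated, -3.25, was -3.39 within number 2 (replicate block) and -3.52 to -3.06 without single arrays. That of salicylic acid minus untreated, -0.55, was -0.999 without salicylic acid replicate 1 and -0.0915 without replicate 2, and that of clothianidin minus untreated ran from -0.83 to -0.26 without single arrays. No member passed limma's threshold for clothianidin or salicylic acid under any of the 14 alternatives, the replicate block (0 called) included. Differences between replicates 1 and 2 correlated at 0.302 for untreated with clothianidin, 0.523 for untreated with salicylic acid and 0.361 for clothianidin with salicylic acid, and at 0.0549, 0.23 and -0.002 for imidacloprid with untreated, clothianidin and salicylic acid. The 3 groups tested thus share deviations by number, which the block takes up. With it, 14 of 199 members had an unadjusted limma p under 0.05 for clothianidin minus untreated, beside 898 of all 22746 probe sets. For salicylic acid minus untreated there were 15, beside 1146, and for clothianidin minus salicylic acid 2, beside 494. Without the block the members numbered 11, 16 and 3, beside 599, 768 and 277 of all probe sets. Over all probe sets, calls without each array in turn ran from 0 to 72 for clothianidin minus untreated and 0 to 82 for salicylic acid minus untreated (both highest without untreated replicate 2), 0 to 19 for clothianidin minus salicylic acid (highest without salicylic acid replicate 1) and 1 to 465 for imidacloprid minus untreated (lowest without untreated replicate 1, highest without either salicylic acid array). The last, 71 in all, was 43 with a replicate block, 174 with only the 2 groups, 189 with arrays centred on medians and 173 without dim probe sets; the cause was not tested. At dim probe sets, signal near background limits the size of a difference.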
